A study of Mus musculus with 8 samples.

Results

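The forebrain tissue labelled neonatal cortex and the neonatal cerebellum of the same mouse lines were compared across genes on 4 of the 8 arrays of the study, chosen because their titles name these regions: 2 cortex arrays and 2 cerebellum arrays. All mice were T9H/+ heterozygotes, carriers of a reciprocal translocation between chromosomes 7 and 15, and every sample had a duplication of the proximal ends of both chromosomes. In the samples called maternal-7 here, proximal chromosome 7 was duplicated on the maternal side and proximal chromosome 15 on the paternal side. In those called paternal-7 the parents were reversed. Each region had 1 array of either kind, so that the arrays form 2 pairs, and no sample was free of a duplication. The other 4 arrays hold whole embryonic brain at 15.5 and 13.5 days post coitum (dpc), also 1 array per duplication, and served to estimate the spread between arrays. The labels give no day of age for the neonates, describe the cortex samples also as forebrain, and are silent on where each region was cut and on whether RNA of several animals was pooled. By the design text there were no biological replicates. The p-values therefore rest on the array-to-array spread alone.

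At birth the cortex consists largely of glutamatergic projection neurons that have settled in layers, with GABAergic interneurons that migrate in from the basal forebrain. The cerebellum is still being built: granule cells multiply on its surface, Purkinje cells lie below, and interneurons and the deep nuclei arise from their own progenitors. It forms next to the midbrain-hindbrain boundary, and its neighbours are the colliculi in front and the pons and medulla below, which hold the serotonin and noradrenaline neurons. Region identity is carried by transcription factors that mark a neuron's origin and by the receptors, channels and transmitter genes of the mature cell.

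The values are MAS5 signals of the 430B array, which holds groups of short probes, called probe sets, of which several may report on 1 gene. Signal medians were 229.8 to 235.2 units on the neonatal and 257.1 to 285.7 on the embryonic arrays. Over 13221 tested probe sets the log2 signals correlated at 0.953 between the cortex arrays and 0.949 between the cerebellum arrays. Across regions the correlation was 0.945 within the maternal-7 pair and 0.934 within the paternal-7 pair, and the cortex minus cerebellum differences of both pairs correlated at 0.383. These describe agreement over probe sets, and probe sets are no substitute for replicate samples. Differences below are cortex minus cerebellum in log2 units of signal plus 58.5 units, so that they understate the change of dim probe sets, and ± is the moderated standard error of limma. A probe set was called where its Benjamini-Hochberg adjusted p over all tested probe sets was under 0.05. Where both arrays of the dimmer region lay below their array medians, the dim side was set at those medians for a bound written as "at least N-fold".

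Few genes were called between the neonatal regions. Among named genes, Zbtb20, through 1 of its 6 tested probe sets, and Met lay furthest towards cortex, and Tfap2b and Pax7 furthest towards cerebellum. Of 13221 tested probe sets, 26 (0.197%) were called higher in cortex, from 19 named genes and 1 probe set with no gene name, and 17 (0.129%) were called higher in cerebellum, from 12 named genes and 3 probe sets with no name, 43 (0.325%) in all. In each of the 43, both arrays of one region lay above both of the other and the difference was at least 2-fold in both pairs. Some, such as Tph2, Hcrtr1, Cpne9 and Egr3, exceeded the array median on both arrays of the higher region and on no other. They were tested only through those arrays, so that for them the lack of overlap was fixed by the filter. Arrays that did not overlap were frequent among all tested probe sets, at 19.6% with cortex higher and 21.4% with cerebellum higher. The smallest called difference was 1.43, and the median over all tested probe sets was -0.01. In bulk tissue, fewer cells of a type and less RNA per cell cannot be told apart. With any single neonatal array left out, 0 probe sets were called (limma, smallest adjusted p from 0.130 to 0.207, with 555 to 889 probe sets at an unadjusted p under 0.05 against 1011 with all arrays), while the 43 differences kept their sign. Since each of the 43 was at least 2-fold in both pairs, the kept sign was largely fixed by the choice. Without the 15.5 dpc pair 21 were called and without the 13.5 dpc pair 20.

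**Figure D1:**
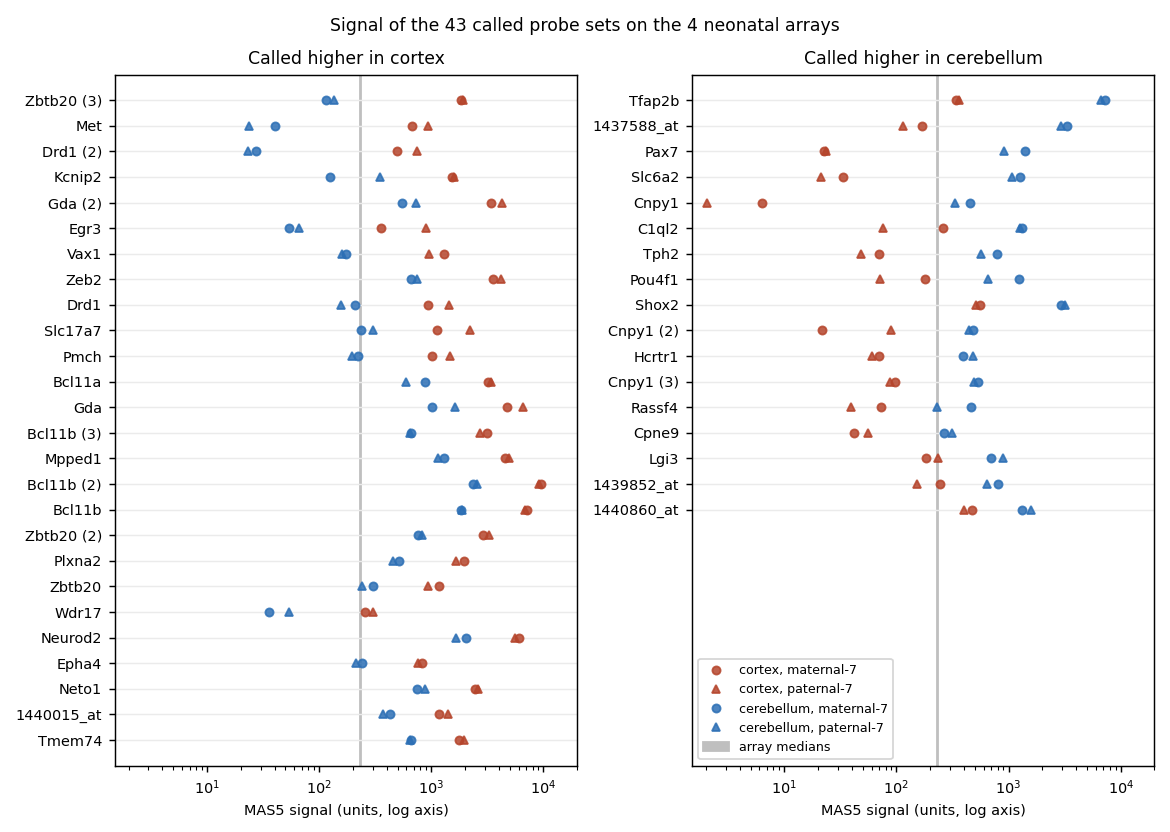
Signal of each of the 43 called probe sets on the 4 neonatal arrays, on a log axis in MAS5 units, with 1 row per probe set, colour for the region and shape for the duplication. The grey line marks the array medians. Several called probe sets of 1 gene are numbered. In every row both symbols of one colour lie to one side of both symbols of the other, and in 8 rows of the left and 11 of the right panel both symbols of the dimmer region lie below the array medians.

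The genes called higher in cortex began with factors of forebrain neurons. Zbtb20, a zinc finger repressor of developing hippocampus and cortex, gave the largest difference in 1 of its 6 tested probe sets, while its brightest one stood at 0.996 ± 0.251 and was not called. The Zbtb20 probe set with the largest difference, 1439278_at, read 1845 and 1936 units in the maternal-7 and paternal-7 cortex and 115 and 136.5 in the cerebellum, a difference of 3.40 ± 0.26 (limma adjusted p = 0.00983, at least 8.13-fold). Zeb2, a zinc finger gene of new cortical neurons and migrating interneurons, read 3541 and 4152 in cortex against 661.5 and 741 in cerebellum, 2.36 ± 0.29 (adjusted p = 0.0376). Bcl11b, which specifies projection neurons of the deep layers and of the striatum, read 9541 and 9196 in cortex and 2340.2 and 2571 in cerebellum in its brightest probe set, 1.91 ± 0.23 (adjusted p = 0.0342). Both cerebellum arrays were thus far above their medians for Bcl11b, and the gene was a matter of degree between the regions.

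Bcl11a, a related zinc finger gene of cortical projection neurons, read 3212 and 3371 in cortex against 879 and 599.8 in cerebellum, 2.09 ± 0.23 (limma adjusted p = 0.0293). Neurod2, a basic helix-loop-helix factor of maturing glutamatergic neurons, read 6037 and 5619.8 against 2033 and 1653, 1.64 ± 0.19 (adjusted p = 0.0319). Vax1, a homeobox gene of the ventral forebrain, read 1299 and 945 against 175 and 159, so that the cerebellum lay below the array medians, with a difference of 2.37 ± 0.19 (adjusted p = 0.00983, at least 4.77-fold).

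Receptors and guidance molecules formed the next group. Met, the receptor of hepatocyte growth factor, which marks cortical projection neurons, read 679 and 940.0 in cortex and 40.6 and 23.8 in cerebellum, 3.25 ± 0.26 (limma adjusted p = 0.00983, at least 3.44-fold). Drd1, the dopamine receptor of striatal projection neurons and of deep cortical layers, read 942 and 1429 against 207 and 155 in its brighter probe set, 2.36 ± 0.26 (adjusted p = 0.0293, at least 4.99-fold). Plxna2, a semaphorin receptor subunit, read 1951.5 and 1655 against 513 and 459 in its called probe set, and Epha4, an ephrin receptor, read 818 and 766 against 241 and 213. Their differences were 1.77 ± 0.23 and 1.58 ± 0.20.

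Genes of transmission and excitability were also higher in cortex. Slc17a7, which encodes VGLUT1, the vesicular glutamate transporter of cortical neurons, read 1127 in the maternal-7 and 2215 in the paternal-7 cortex, against 234 and 301 in cerebellum, 2.34 ± 0.26 (limma adjusted p = 0.0293). The cortex arrays differed from each other here, and both still lay above the cerebellum. Kcnip2, a partner subunit of A-type potassium channels, read 1531 and 1582 against 125 and 349.7, 2.56 ± 0.28 (adjusted p = 0.0293), with the spread on the cerebellum side. Neto1, an auxiliary subunit of kainate receptors, read 2451 and 2587 against 752 and 871, 1.57 ± 0.19 (adjusted p = 0.0369).

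Egr3, an immediate early gene that follows neuronal activity, read 358 and 899.9 in cortex and 53.5 and 66.6 in cerebellum, 2.42 ± 0.29 (limma adjusted p = 0.0342, at least 2.44-fold). Gda, guanine deaminase, a purine enzyme abundant in forebrain dendrites, read 4766 and 6615 against 1020.3 and 1625 in its brighter probe set, 2.07 ± 0.18 (adjusted p = 0.0138). Pmch, the precursor of melanin-concentrating hormone, a peptide of lateral hypothalamic neurons, read 1018 and 1468 against 222 and 196, 2.26 ± 0.27 (adjusted p = 0.0342, at least 5.26-fold). Mpped1, Wdr17 and Tmem74 completed the named genes, at 1.93 ± 0.18, 1.71 ± 0.19 and 1.43 ± 0.18 in their called probe sets. Of these, Mpped1 was bright on all arrays (4569 and 4956 against 1287 and 1137). Wdr17 was dim in cerebellum (256 and 299 against 35.3 and 54.0), with a bound of at least 1.19-fold.

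Tfap2b led the genes called higher in cerebellum. It encodes AP-2 beta, a transcription factor of cerebellar GABAergic progenitors and interneurons and of some midbrain and hindbrain neurons. It read 339 and 363 units in cortex and 7313 and 6639 in cerebellum, a difference of -4.10 ± 0.32 (limma adjusted p = 0.00983). The cortex signals lay above the array medians, so that the gene was measured on both sides. A probe set with no gene name, 1437588_at, followed at -4.0 ± 0.22, with 170 and 114 units in cortex against 3340.2 and 2908 in cerebellum (adjusted p = 0.00617, at least 13.4-fold).

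Other transcription factor genes of this direction are known from the midbrain, hindbrain and spinal cord. Pax7, a paired box gene of the dorsal midbrain and neural tube, read 22.5 and 23.7 in cortex and 1393.5 and 912 in cerebellum, -3.86 ± 0.37 (limma adjusted p = 0.0208, at least 4.84-fold). Pou4f1, which encodes BRN3A, a factor of sensory ganglia, habenula, tectum and inferior olive, read 179.8 and 72.1 against 1246 and 657, -2.45 ± 0.20 (adjusted p = 0.0105, at least 3.88-fold). Its other tested probe set, 1429668_at, was not called at -1.44 ± 0.24 (limma adjusted p = 0.101). Shox2, a homeobox gene of thalamus, midbrain and hindbrain, read 556 and 513 against 2922 and 3168, -2.39 ± 0.25 (adjusted p = 0.0270). The cerebellum arrays differed most for Pou4f1, where the maternal-7 array read about as far above the paternal-7 array in cerebellum as in cortex, and both pairs gave -2.45.

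Cnpy1, a secretory pathway protein linked to FGF signalling at the midbrain-hindbrain boundary, was called in all of its 3 tested probe sets. The brightest read 21.8 and 89.1 in cortex against 487 and 444 in cerebellum, -2.27 ± 0.27 (limma adjusted p = 0.0342, at least 1.995-fold). The others stood at -2.84 ± 0.205 (at least 1.67-fold) and -1.92 ± 0.22 (at least 2.20-fold).

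Monoamine and arousal genes made up the next group. Tph2, the serotonin synthesis enzyme of raphe neurons, read 69.5 and 48.0 in cortex and 789 and 569.6 in cerebellum, -2.64 ± 0.19 (limma adjusted p = 0.00983, at least 2.88-fold). Slc6a2 encodes the noradrenaline transporter of the locus coeruleus, and its probe set 1460129_at read 33.6 and 21.1 against 1273 and 1072, -3.84 ± 0.25 (adjusted p = 0.00983, at least 5.02-fold). Its brightest probe set stood at 0.12 ± 0.28 and the remaining one at -0.60 ± 0.29, and neither was called. Hcrtr1, an orexin receptor of the locus coeruleus and other brainstem nuclei, read 69.5 and 60.1 against 396 and 479, -2.004 ± 0.192 (adjusted p = 0.0208, at least 1.87-fold). Dbh, which makes noradrenaline from dopamine, was not called at -1.41 ± 0.21 (adjusted p = 0.0668), with 173 and 158 against 466 and 613 units, and Slc18a2, the vesicular monoamine transporter, stood at -1.22 ± 0.27 (adjusted p = 0.241).

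Among secreted synaptic proteins, C1ql2, a member of the C1q family, read 261 and 76.2 in cortex and 1329 and 1258 in cerebellum, -2.70 ± 0.31 (limma adjusted p = 0.0319). Lgi3, of the leucine-rich glioma inactivated family, read 184 and 233 against 701 and 898 in its called probe set, -1.68 ± 0.20 (adjusted p = 0.0319). Cpne9, a copine, stood at -1.70 ± 0.20 and Rassf4, a Ras association domain gene, at -1.77 ± 0.23 in its called probe set. Both were dim: Cpne9 read 42.0 and 56.3 against 268 and 313 (at least 1.24-fold), and Rassf4 read 73.2 and 39.5 against 463.5 and 231 (at least 1.40-fold). Of the other called probe sets with no gene name, 1439852_at stood at -1.62 ± 0.18.

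**Figure D2:**
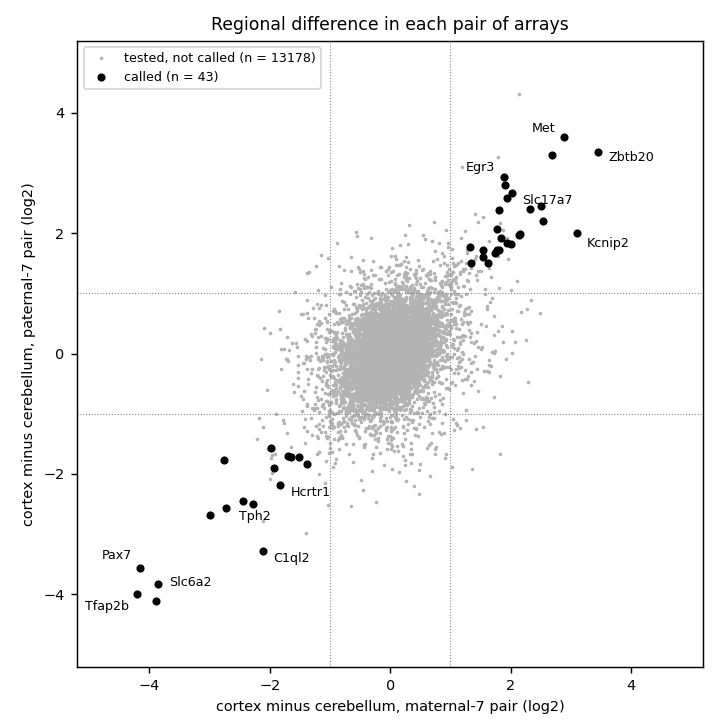
Cortex minus cerebellum difference (log2) in the maternal-7 pair, on the horizontal axis, and in the paternal-7 pair, on the vertical axis, for 13221 tested probe sets, 1 point each, with the 43 called ones in black and the dotted lines at a 2-fold difference. All black points lie beyond 2-fold in both pairs, and the grey cloud shows how little of the remaining differences both pairs shared (r = 0.383).

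Promoter sequences are shown for 4 called genes as examples, a transcription factor and a transporter of glutamatergic neurons from the cortex side, and a transmitter enzyme and a POU homeodomain factor from the cerebellum side. They come from RefSeq (GRCm38.p6), run from 250 bases before to 50 after a transcript start, and are written 5′ to 3′ on the gene's strand. Neurod2 is at chr11:98329596-98329895 (minus strand), Slc17a7 at chr7:45163671-45163970 (plus), Tph2 at chr10:115184973-115185272 (minus) and Pou4f1 at chr14:104467950-104468249 (minus). Capitals mark matches, on either strand, to the AP-2 motif GCCNNNGGC or to 1 of 3 E-boxes, the kinds of letters that AP-2 and basic helix-loop-helix factors such as Neurod2 can bind. The E-box of Neurod2 is CAGATG. Slc17a7 holds the AP-2 motif and the E-box CAGGTG, and that of Tph2 is CAGCTG. Pou4f1 holds the E-boxes of both Slc17a7 and Tph2.
Neurod2: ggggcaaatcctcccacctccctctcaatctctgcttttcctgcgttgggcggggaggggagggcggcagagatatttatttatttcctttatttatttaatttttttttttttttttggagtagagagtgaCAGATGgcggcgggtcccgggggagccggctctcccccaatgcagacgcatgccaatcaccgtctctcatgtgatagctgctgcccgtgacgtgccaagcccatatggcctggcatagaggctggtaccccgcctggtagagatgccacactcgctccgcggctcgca
Slc17a7: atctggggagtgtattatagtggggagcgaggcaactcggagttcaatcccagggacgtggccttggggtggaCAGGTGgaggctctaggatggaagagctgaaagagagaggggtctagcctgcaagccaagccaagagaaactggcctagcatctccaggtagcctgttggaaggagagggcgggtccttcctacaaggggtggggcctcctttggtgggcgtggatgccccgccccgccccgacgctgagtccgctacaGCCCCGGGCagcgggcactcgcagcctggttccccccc
Tph2: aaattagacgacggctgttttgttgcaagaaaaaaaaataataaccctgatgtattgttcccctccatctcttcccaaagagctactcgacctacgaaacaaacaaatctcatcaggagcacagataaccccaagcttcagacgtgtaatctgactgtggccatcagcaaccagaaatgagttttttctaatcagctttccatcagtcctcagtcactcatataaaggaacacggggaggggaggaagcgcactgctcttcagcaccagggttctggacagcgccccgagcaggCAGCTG
Pou4f1: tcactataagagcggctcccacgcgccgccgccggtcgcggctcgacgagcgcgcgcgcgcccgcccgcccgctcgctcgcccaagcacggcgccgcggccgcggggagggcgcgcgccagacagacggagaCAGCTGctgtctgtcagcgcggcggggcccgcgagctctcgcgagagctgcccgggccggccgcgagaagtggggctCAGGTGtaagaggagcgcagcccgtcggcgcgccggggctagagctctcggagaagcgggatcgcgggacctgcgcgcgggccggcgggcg

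Windows were found for 16 of the 19 genes called higher in cortex (24 windows) and for 10 of the 12 called higher in cerebellum (13 windows), out of 32851 windows in all. GCCNNNGGC was in 29.2% of the cortex windows, 0.0% of the cerebellum windows and 16.6% of all windows. The E-box of Neurod2 was in 8.33%, 30.8% and 17.2% of these windows in the same order, that of Tph2 in 0.0%, 23.1% and 16.3%, and that of Slc17a7 in 20.8%, 30.8% and 20.2%. The homeobox letters TAATTA, whose reverse strand reads the same, were in 0.0% of both sets and 5.29% of all windows. With 24 and 13 windows a single window moves these shares by several percent, some windows are alternative starts of 1 gene, and a match is a description of letters and not a site in use.

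Gene lists for neurons, regions and pathways were described by counts and medians. The lists and their members were chosen with earlier results of these data known. Their counts, medians and sums are thus in part fixed by the choice and are no test of region identity. On every list some genes had no probe set here, so that counts and medians cover the tested genes only. A gene counts as called if any of its probe sets was called, whereas medians and counts above 0 take each gene at its brightest tested probe set. Among called genes on the lists, the brightest probe sets of Zbtb20, Plxna2, Epha4, Lgi3 and Slc6a2 were not called. The same held for Rassf4 and Wdr17, which are on no list. Their brightest probe sets stood at -0.58 ± 0.21 and 0.61 ± 0.33 (limma adjusted p = 0.564 and 0.772). Over all 6902 tested genes, 0.275% had a probe set called higher in cortex and 0.174% one called higher in cerebellum, the median difference was -0.03 and 45.3% lay above 0. At least 2-fold in both pairs were 0.768% of genes with cortex higher and 0.637% with cerebellum higher.

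Of 21 tested genes on cortical projection neuron factors, 5 were called higher in cortex (Zbtb20, Zeb2, Bcl11a, Bcl11b and Neurod2) and 0 higher in cerebellum. The list's median was 0.40, and 18 of 21 lay above 0. Its summed signal was 59874 and 58015.5 units on the cortex and 37150 and 30399.8 on the cerebellum arrays. The genes not called included Lmo7 at 1.18 ± 0.20, Sox5, a factor of deep-layer neurons, at 1.17 ± 0.25, and Emx1, a homeobox gene of the dorsal forebrain, at 0.63 ± 0.21, with 697 and 857 units against 419 and 549. Foxp2 stood at -0.20 ± 0.18 and was bright in both regions.

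Markers of striatum and basal forebrain gave a higher median, 0.67, with all 14 tested genes above 0 and 2 called higher in cortex, Drd1 and Vax1. Their summed signal was 25662 and 25679 units in cortex and 14451 and 14129 in cerebellum, and 13 of 14 lay above the array median on both cortex arrays against 8 on both cerebellum arrays. Gng7, a G protein subunit of striatal neurons, missed the threshold at 1.503 ± 0.204 (limma adjusted p = 0.0527), with 2658 and 3610.4 units against 1057 and 1054, and the phosphodiesterase gene Pde10a stood at 1.06 ± 0.39. The tachykinin gene Tac1 stood at 0.02 ± 0.29. What the share of striatal tissue in the cortex samples contributes to the differences of Drd1, Vax1 or Bcl11b was not tested.

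Of 10 tested genes of forebrain GABAergic interneurons 0 were called by limma, with 6 above 0 and a median of 0.15. The lowest adjusted p was that of Dlx6os1, a noncoding RNA of the Dlx5 and Dlx6 locus, at 1.82 ± 0.26 (adjusted p = 0.0647), with 679.9 and 806 units against 211 and 131. Gad2, an enzyme of GABA synthesis common to both regions, stood at -0.11 ± 0.24. Of 8 hypothalamic and thalamic genes, Pmch was called higher in cortex, while 3 of 8 lay above 0 and the median was -0.42. Their summed signals overlapped, at 7652 and 6543 units in cortex and 9727 and 6998 in cerebellum.

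Granule and Purkinje cells are the cell types by which a cerebellum is usually known. Of 12 tested genes of the granule cell lineage 0 were called by limma in either direction, the median was -0.10 and 6 lay above 0. Zic1, a zinc finger gene of granule cell precursors, read 6283 and 3646 units in cortex and 4795 and 4437 in cerebellum, 0.05 ± 0.23. Cntn2, an adhesion molecule of granule cell and corticofugal axons, went the other way at 1.53 ± 0.21 (adjusted p = 0.0552). Of 11 Purkinje cell genes, 1 was called, Bcl11a, which was higher in cortex and is also on the list of cortical factors. Calb1, the calbindin gene, stood at -0.42 ± 0.45, with 124 and 234 units against 293 and 213, and Shh, the mitogen that Purkinje cells release, at -0.77 ± 0.21 (adjusted p = 0.382), with 948 and 617 units against 1349.6 and 1347. The phospholipase gene Plcb4 stood at -0.78 and was not called. At the share of all genes called higher in cerebellum, 0.174%, a count of 0 on lists of this size says nothing particular about them. Of the 35 and 32 genes on these lists, 15 and 13 had a probe set here, and the rest were not analysed here.

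Cerebellar interneurons and deep nuclei formed the list with the lowest median, -1.77, which is the value of Slc6a5. Of the 23 genes on the list, 7 had a probe set here. Of its 7 tested genes 2 were called higher in cerebellum, Tfap2b and Pou4f1, and 1 lay above 0, Meis2 at 0.97 ± 0.22. Pax3, a paired box gene of the dorsal neural tube, stood at -1.86 ± 0.26 (limma adjusted p = 0.0586), with 16.8 and 23.0 units against 239 and 213. Slc6a5, the glycine transporter of inhibitory neurons, stood at -1.77 ± 0.53 (limma adjusted p = 0.429), with one cortex array at 242 and the other at 41.3. The summed signal of the list was 10099.7 and 10196 in cortex and 17069 and 16298 in cerebellum. Pou4f1 and Slc6a5 are also on the brainstem list, Pax3 on that of midbrain-hindbrain patterning and Meis2 on the striatal one. These lists thus share genes and are not separate observations.

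Genes of midbrain-hindbrain patterning stood next, with a median of -1.47, 0 of 6 above 0 and 2 called higher in cerebellum, Pax7 and Cnpy1. Of the 37 genes on this list, 7 had a probe set here and 6 were tested. Their summed signal was 1809 and 1810.0 units in cortex and 4654 and 4177 in cerebellum. Lmx1b, a LIM homeobox gene of serotonin neurons and the isthmus, stood at -1.07 ± 0.18 (limma adjusted p = 0.106), and Pax5 at -0.38 ± 0.20. Of 14 brainstem and Hox genes 2 were called higher in cerebellum, Pou4f1 and Shox2, with a median of -0.34 and summed signals of 6413 and 5788 against 10459 and 10884. The 6 Hox genes tested, which mark the hindbrain behind the cerebellum and the spinal cord, ranged from -0.62 ± 0.32 for Hoxa5 to 0.20 ± 0.24 for Hoxc5, and 0 of them were called.

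Genes of monoamine and acetylcholine systems had 3 of 22 called higher in cerebellum (Slc6a2, Tph2 and Hcrtr1) and 1 higher in cortex (Drd1), with 4 of 22 above 0 and a median of -0.30. Slc6a2 counts here through 1460129_at alone: its brightest probe set, which enters the median and is among those above 0, stood at 0.12 ± 0.28, and the third one, at -0.60 ± 0.29, was not called. The transmitters these enzymes and transporters serve are made in brainstem nuclei that lie beside the cerebellum. The sample titles name only the cerebellum, and what neighbouring midbrain or brainstem tissue contributes to the signals of Pax7, Shox2, Tph2, Slc6a2 and Hcrtr1 was not tested.

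**Figure D3:**
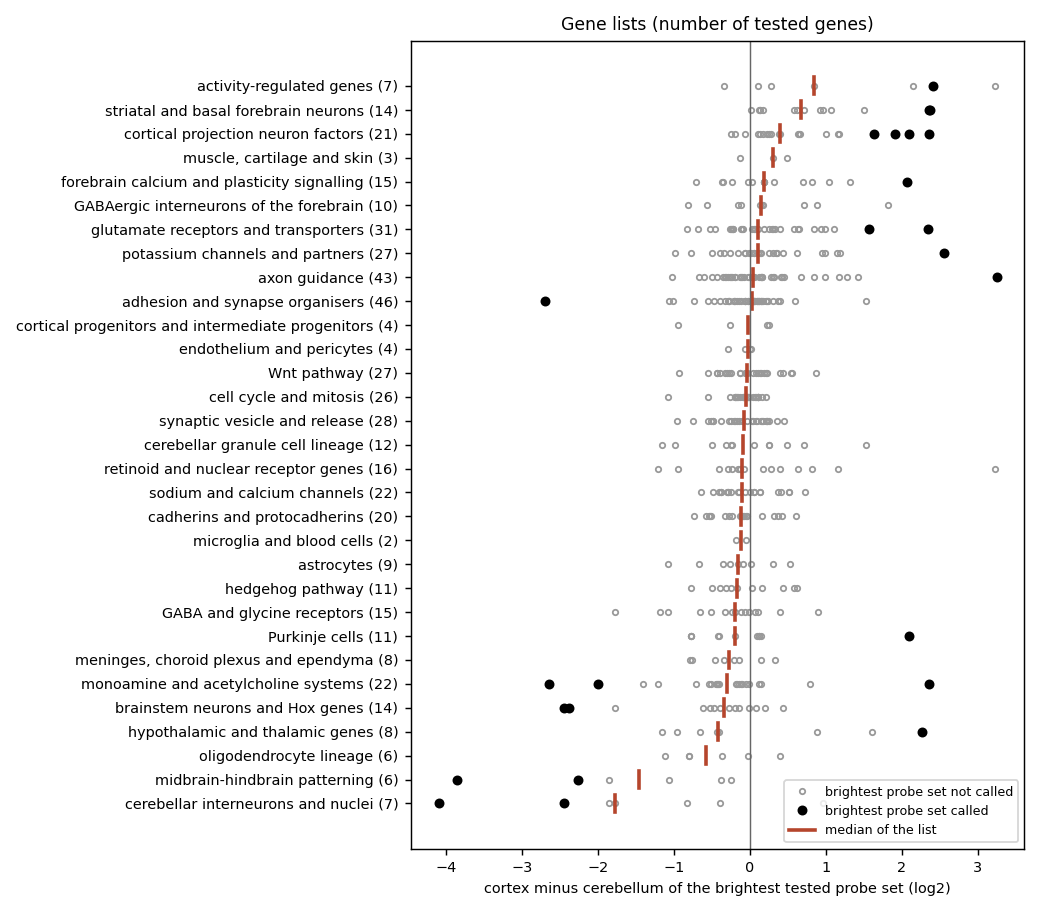
Cortex minus cerebellum difference (log2) of each tested gene of 31 lists, at its brightest tested probe set, with the number of tested genes in parentheses and a bar at the list median. Filled points are brightest probe sets that were called, so that a gene called in another probe set, such as Slc6a2, is open. Lists of activity-regulated (0.84), striatal (0.67) and cortical (0.40) genes lie to the right. Those of cerebellar interneurons and nuclei (-1.77) and of midbrain-hindbrain patterning (-1.47) lie to the left. The lists were chosen with earlier results of these data known.

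Lists of glutamate, potassium channel, guidance, plasticity and adhesion genes had medians between 0.03 and 0.18, against -0.03 over all genes. Of 31 glutamate receptor and transporter genes 2 were called, Slc17a7 and Neto1, both higher in cortex, and the list's median was 0.11. The NMDA receptor subunit gene Grin2b stood at 1.10 ± 0.26 and the metabotropic receptor gene Grm4 at -0.84 ± 0.18, both with a limma adjusted p over 0.05 (0.286 and 0.212). Potassium channels had 1 of 27 called (Kcnip2), axon guidance genes 3 of 43 (Met, Plxna2 and Epha4), forebrain calcium and plasticity genes 1 of 15 (Gda), all higher in cortex, and their medians were 0.10, 0.04 and 0.18. Adhesion and synapse organisers had 2 of 46 called, C1ql2 and Lgi3, both higher in cerebellum, with a median of 0.03. Epha3, an ephrin receptor gene, missed the threshold at 1.42 ± 0.19 (adjusted p = 0.0517), and Cbln2, a cerebellin, stood at -1.06 ± 0.20 (adjusted p = 0.158).

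Activity-regulated genes had the highest median of the lists, 0.84, with 6 of 7 above 0, and 1 of 7 called, Egr3. Of the 29 genes on this list, 11 had a probe set here and 7 were tested. Nr4a3, an orphan nuclear receptor induced by activity, had a difference of 3.23 ± 0.47, among the largest measured, and was not called (limma adjusted p = 0.0667): it read 1566 and 3590.1 in cortex and 309 and 125 in cerebellum. Fosl2, an AP-1 gene, read 1029 and 1479 against 416 and 121, 2.15 ± 0.42 (adjusted p = 0.166). The paternal-7 cortex array was the higher of both cortex arrays for all 3 genes, and the summed signal of the list was 11329.5 on the maternal-7 and 15882 on the paternal-7 cortex array, against 8396 and 8949.8 in cerebellum.

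In the lists for GABA and glycine receptors (15 genes), sodium and calcium channels (22), cadherins (20), synaptic vesicle genes (28), hedgehog (11), Wnt (27) and nuclear receptor genes (16), the cell cycle (26) and cortical progenitors (4), limma called 0 genes, and the medians lay between -0.20 and -0.02.

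Markers of other cell types were called in neither region. Astrocyte genes (9) had a median of -0.15, endothelium and pericytes (4) -0.03, microglia and blood (2) -0.12, meninges, choroid plexus and ependyma (8) -0.28, and muscle, cartilage and skin (3) 0.30 with 0 of 3 above the array medians on both arrays of either region. The oligodendrocyte lineage (6) had a median of -0.58, with summed signals of 2298.5 and 3995 units in cortex and 4057 and 6267 in cerebellum. Bcas1, a gene of early oligodendrocytes, stood at -1.11 ± 0.31 (limma adjusted p = 0.392), reading 558 and 1436 in cortex and 1557 and 2615 in cerebellum. The paternal-7 array was the brighter one in both regions. Ttr, the transthyretin gene of the choroid plexus, read between 33731 and 42874 units on the 4 arrays and stood at -0.14 ± 0.23.

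Several probe sets of 1 gene gave a check within the arrays. Of the 31 named genes with a called probe set, 16 had 1 tested probe set and 15 had 2 or more. In 14 of the 15 all tested probe sets had 1 sign, in 4 (Bcl11b, Drd1, Gda and Cnpy1) all were called, and 0 genes had called probe sets of opposite sign. Of their 18 probe sets that were tested and not called, 17 had the sign of the called one. The range over the probe sets of a gene had a median of 0.94 in the 15 called genes and 0.25 in all 2032 genes with several tested probe sets. Since a gene entered the 15 through a large difference, this range was in part fixed by the choice.

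**Figure D4:**
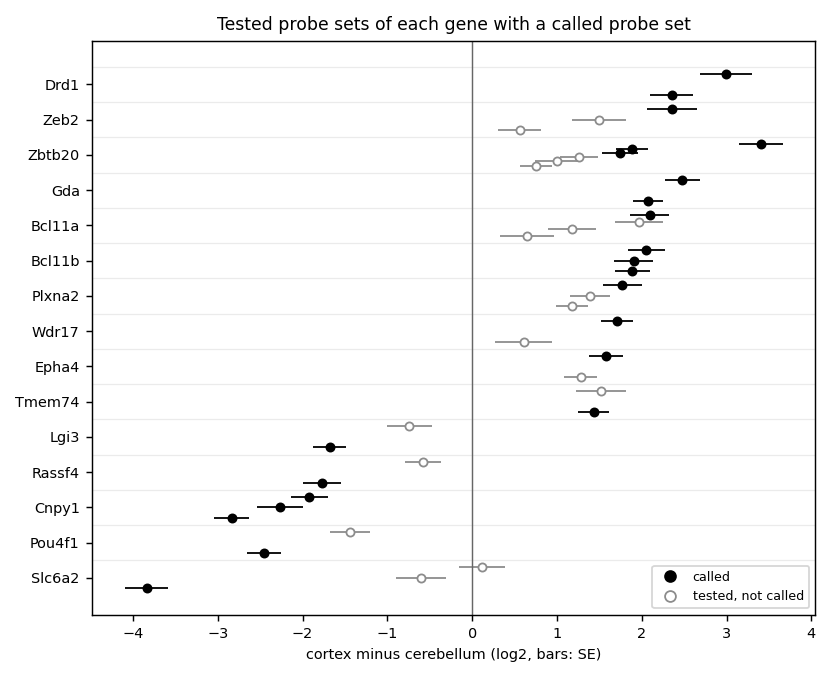
Cortex minus cerebellum difference (log2) of every tested probe set of the 15 called genes that have several, with the moderated standard error as bars and filled symbols for called probe sets. All symbols of a gene lie on one side of 0 except those of Slc6a2, where 1 probe set stands at -3.84 and the others at -0.60 and 0.12.

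Bcl11b was alike in its probe sets, at 2.06 ± 0.22, 1.91 ± 0.23 and 1.89 ± 0.21, although their cortex means ranged from 2905.5 to 9368 units. Gda stood at 2.48 ± 0.20 and 2.07 ± 0.18, and Drd1 at 2.99 ± 0.31 and 2.36 ± 0.26. The 3 probe sets of Plxna2 stood at 1.77 ± 0.23, 1.39 ± 0.24 and 1.18 ± 0.19, and those of Epha4 at 1.58 ± 0.20 and 1.28 ± 0.20, where in both genes the dimmer probe set was the one called.

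Zbtb20 had 6 tested probe sets, all above 0, of which 3 were called. They stood at 3.40 ± 0.26, 1.89 ± 0.19, 1.74 ± 0.21, 1.26 ± 0.23, 0.996 ± 0.251 and 0.75 ± 0.19. The brightest, 1439128_at, was among those not called: it read 3637 and 3839 in cortex and 2029 and 1676 in cerebellum (limma adjusted p = 0.324). The test of the difference between 1439278_at and the brightest gave 2.41 ± 0.36 and did not pass (adjusted p = 0.405 over 2870 pairs of probe sets). Bcl11a spread from 2.09 ± 0.23 to 0.65 ± 0.32 over 4 probe sets and Zeb2 from 2.36 ± 0.29 to 0.56 ± 0.25 over 3, with 1 called in each.

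Slc6a2 was the exception. Its brightest probe set, 1447311_at, read 879.8 and 1148 in cortex and 976 and 871 in cerebellum, 0.12 ± 0.28, and 1442449_at stood at -0.60 ± 0.29, against -3.84 ± 0.25 for 1460129_at. The difference between 1460129_at and the brightest was -3.96 ± 0.27 (limma adjusted p = 0.00466), the only one called of 2870 pairs (0.0348%), with 102 at an unadjusted p under 0.05. This call held without the maternal-7 cortex array (smallest adjusted p = 0.0345). It ended without the paternal-7 cortex array (0.0843), the maternal-7 cerebellum array (0.134) or the paternal-7 cerebellum array (0.154). On the embryonic arrays 1460129_at read 27.3 and 24.4 at 15.5 dpc and 121 and 212 at 13.5 dpc, while the brightest read 829 and 693 and then 835.5 and 1428. A statement on Slc6a2 thus depends on the probe set, which carries the same gene name in the platform annotation.

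Of genes with no called probe set, Cntn2 stood at 1.53 ± 0.21, 0.52 ± 0.22 and 0.12 ± 0.17 in its 3 tested probe sets, Ccbe1 at 1.71 ± 0.23, 0.77 ± 0.27 and -0.29 ± 0.42, and Skor1, a corepressor gene, at -2.19 ± 0.35 and 0.15 ± 0.32. None of the differences between their probe sets passed the test (limma adjusted p = 0.625, 0.601 and 0.946 for the largest).

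For a description with no test, only the neonatal pairs were compared, but the filter and the pseudocount were those set on all arrays. Some probe sets, such as that of Cenpp, thus entered although they lay below the array medians in both neonatal regions. The ± values and adjusted p given here also came from the fit on all arrays. A difference of at least 2-fold in both pairs was required. It was met by 155 probe sets (1.17%), 90 with cortex higher (0.681%) from 68 named genes and 65 with cerebellum higher (0.492%) from 54. In cortex these added, beside the called genes, all with an adjusted p over 0.05, the soluble guanylate cyclase subunit Gucy1a1 at 1.76 ± 0.32 (4376 and 5146 against 1356 and 1365 units), Celf2, an RNA-binding protein gene, at 2.004 ± 0.395 (3267 and 3606 against 876.5 and 751) and Sox11, a factor of immature neurons, at 1.14 ± 0.19 in one probe set (7753 and 5647 against 3714 and 2362). In cerebellum they added Shisa3 at -2.04 ± 0.28 (189 and 182 against 931 and 959.5), Bnc2 at -1.79 ± 0.25 (336 and 401 against 1426 and 1407), Esrrg, an orphan nuclear receptor gene, at -1.21 ± 0.30 (1302 and 1144 against 2757 and 3065) and the neurofilament gene Nefl at -1.02 ± 0.19 (9539 and 7991 against 19389 and 16363). These 7 genes were picked after their values were seen.

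The regional difference was also set side by side in both duplications. For the 43 called probe sets the differences of the maternal-7 and the paternal-7 pair lay apart by a median of 0.21 and by at most 1.17, in C1ql2 (-2.12 and -3.29), against a median of 0.27 and a largest gap of 3.503 over all tested probe sets. Since calling favours probe sets on which both pairs give like values, the smaller gap of the called ones was in part fixed by the choice. A test of whether the regional difference depended on the duplication called 0 of 13221 probe sets (0.0%; limma, lowest adjusted p = 1.0, with 212 probe sets under 0.05 before adjustment), and with 2 residual degrees of freedom such a dependence was not detectable at this number of arrays. Among probe sets with 1 gene name, the largest values of paternal-7 minus maternal-7 were Spata3 at 2.80, Pcnt at 2.72 and Wnk1 at 2.69 at one end, and Gm5785 at -3.28, Sh3d21 at -2.92 and Slc2a9 at -2.81 at the other, none of which was called between the regions. Pcnt read 1061 and 388 in cortex and 2002 and 66.3 in cerebellum.

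The embryonic brain gives the called genes a reference level from before birth, as means over its 2 arrays and with no test. At 15.5 dpc, 20 of the 26 probe sets called higher in cortex lay between the regions, 3 lay above both (Neurod2, Wdr17 and Mpped1) and 3 below both (Neto1, Epha4 and 1 of Gda). At 13.5 dpc 16 lay between and 10 below both. Neurod2 read 5828 and 6157 units at 15.5 dpc, close to the neonatal cortex, and 2145 and 2168.5 at 13.5 dpc, close to the neonatal cerebellum. Neto1 read 18.6 and 43.8 at 13.5 dpc and 444 and 641 at 15.5 dpc, below both neonatal regions, as did the Drd1 probe set 1456051_at at 13.5 dpc (76.6 and 60.2).

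Of the 17 probe sets called higher in cerebellum, 13 lay between the regions at 15.5 dpc, 4 below both (Slc6a2, Hcrtr1, Rassf4 and Cpne9) and 0 above both. At 13.5 dpc 12 lay between, 4 below both (C1ql2, Hcrtr1, Cpne9 and Lgi3) and 1 above both (1439852_at). Tfap2b read 2466.5 and 1036 at 15.5 dpc and 2352 and 1912 at 13.5 dpc. Shox2 read 3290.1 and 2479 at 13.5 dpc, close to its neonatal cerebellum, and 1816 and 1049 at 15.5 dpc. Whole brain mixes all regions, so that a level between cortex and cerebellum says nothing of where the signal was.

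**Figure D5:**
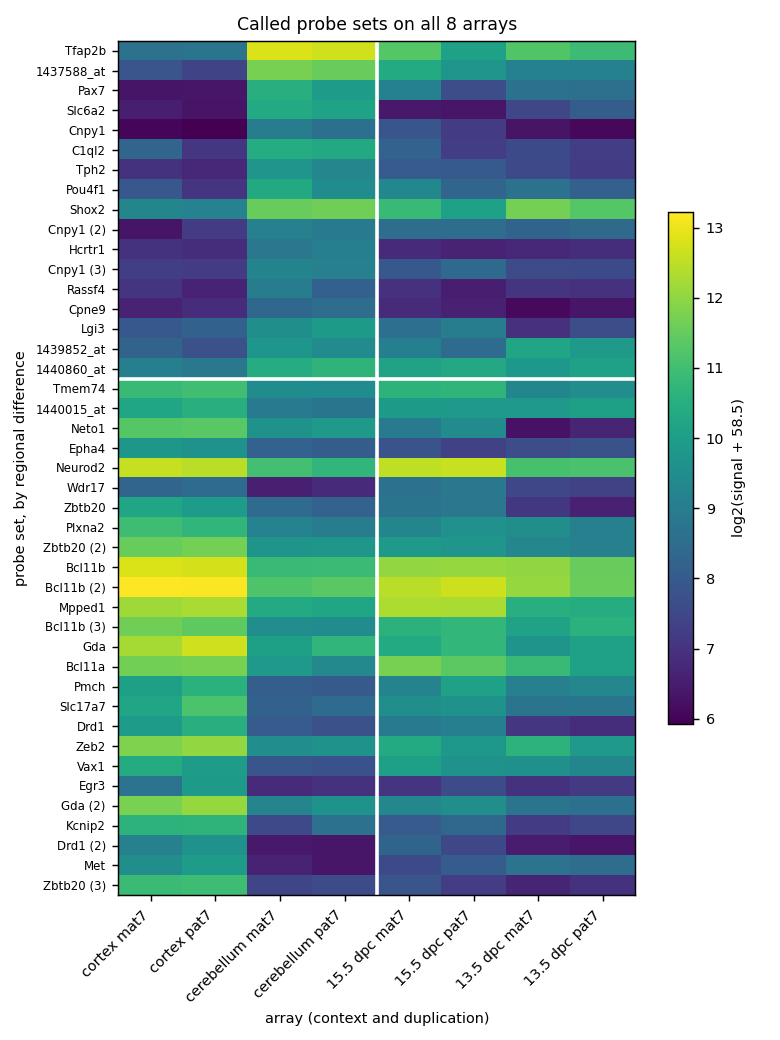
Heat map of log2(signal + 58.5) for the 43 called probe sets, 1 row each, on all 8 arrays, 1 column each, ordered by regional difference with those called higher in cerebellum on top. Tfap2b stands out as bright in both cerebellum columns, and Neurod2, Mpped1 and Bcl11b as bright in both cortex columns and also at 15.5 dpc.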

How the data were processed

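Each of the 8 brain samples has 1 Affymetrix 430B array, labelled from 9 µg of total RNA per the labels' protocols. The deposited values are signal intensity on a linear scale, made by the authors with MAS5 per the submitters' processing notes (version: not given in the sources used here). On every array the mean between the 2nd and 98th percentiles was 499.9, and no further normalization was made. The 64 control probe sets were set aside. Of 22511 probe sets, 14661 had 1 gene symbol in the platform annotation, 245 several and 7605 none, and only those with 1 were named.

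Each array's 20th signal percentile was taken, and their median, 58.5, was the pseudocount. Testing required signals over the array median on 2 or more arrays and left 13221 probe sets (58.7%). Linear models with a term per group and 1 for the duplication were fitted on all 8 arrays (3 residual degrees of freedom) with limma 3.58.1 in R 4.3.3, with Benjamini-Hochberg adjustment. All 31 lists, the members and the motifs were chosen with earlier results of these data known. The genes named are all called genes, up to 6 of a list, those with the most called probe sets or the largest differences between probe sets, and the 5 largest duplication differences each way. Genes named beyond this rule were chosen after their values were seen. The scripts were tested on simulated data. Depth has no meaning for arrays, and their number limits the precision. Alternatives were quantile normalization, median centring, pseudocounts, filters, fewer arrays, models without the duplication term, and moderation with a trend or robust.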

Additional observations from a re-analysis of the deposited data

How the results depend on the processing

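The 43 calls (26 with cortex higher, 17 with cerebellum higher) became 39 under quantile normalization, 45 under median centring, 43 under robust moderation, 51 on the 4 neonatal arrays alone and 54 without the duplication term. They became 27 (15 and 12) with a pseudocount of 16, 22 (11 and 11) with a floor of 1, 11 (5 and 6) with no filter, 83 (56 and 27) with a filter at the 75th percentile, 87 (57 and 30) with an intensity trend, and 75 (44 and 31) at a threshold of 0.1. Without the 15.5 dpc pair there were 21 (9 and 12) and without the 13.5 dpc pair 20 (11 and 9). The share with cortex higher, 60.5% of calls, was 45.5% with no filter and 42.9% without the 15.5 dpc pair. Without any 1 neonatal array there were 0 in either direction. All 43 kept their sign wherever they were tested. As all were at least 2-fold in both pairs, this was largely fixed by the choice. Those called under each of the 12 settings that kept all neonatal arrays at the threshold of 0.05 were 1437588_at and probe sets of Tfap2b, Slc6a2, Gda, Vax1, Met and Zbtb20. The fewest settings were 5 of the 12, for Egr3, Zeb2, C1ql2, Tmem74, Cpne9, the brightest probe set of Cnpy1 and 2 probe sets with no gene name. The filter at the 75th percentile tested only 33 of the 43. It left out Egr3, Cpne9 and this probe set of Cnpy1, which thus could not be called in that setting. The 1 called difference between probe sets became 0 to 1 when 1 neonatal array was left out. The count at least 2-fold in both pairs, 155, was 97 with the filter at the 75th percentile, where fewer were tested. The test of region by duplication could not be fitted with an array left out. The cause of these shifts was not tested.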
